A study of Mus musculus with 18 samples.

Results

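The genes described here build and maintain the primary cilium: subunits of the intraflagellar transport (IFT) trains and their kinesin motors, of the BBSome and its chaperonins, of the transition zone, of the RPGR complex, and a pair of carriers of lipidated proteins. They were chosen by symbol, with earlier results of these data known. The choice took all symbols of the form Ift, Bbs, Nphp or Tctn followed by a number, together with Ttc21a, Ttc21b, Wdr19, Wdr35, Kif3a, Kif3b, Kif17, Cep290, Rpgr, Rpgrip1, Ahi1, Cc2d2a, Arl3, Unc119 and Spata7. Of the 23420 gene symbols counted, 42 fitted this choice. Each was kept, with a mean count of 10 or more, and all 42 were among the 15196 genes tested.

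The study asked whether TD139, a small-molecule inhibitor of the lectin galectin-3, alters the course of light damage in the mouse retina. Retinal RNA was sequenced from 9 wild-type mice of the albino strain BALB/cJ, 3 per group, aged 8 to 10 weeks and of both sexes per the study's methods. Naïve mice were neither exposed to the light nor treated. Vehicle mice received DMSO, and TD139 mice 15 mg/kg TD139 in DMSO, by daily intraperitoneal injection from 1 day before the light. After 16 h in the dark with dilated pupils, both injected groups were exposed to 15000 lux for 1 h, and retinas were taken 4 days later. Vehicle mice therefore differed from naïve mice by light and injections together, and no group without light was injected with TD139.

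A photoreceptor makes its outer segment from a modified primary cilium. All outer segment proteins are made in the inner segment and pass through a narrow connecting cilium, which corresponds to the transition zone of other cilia. IFT-B trains with kinesin-2 carry cargo towards the tip, IFT-A trains with dynein-2 carry it back, the BBSome removes membrane proteins that do not belong in the outer segment, and the MKS and NPHP modules of the transition zone act as a gate. Inherited defects of many of these genes cause retinal degeneration in people, alone or as part of syndromes such as Bardet-Biedl and Joubert syndrome. RFX transcription factors bind an element called the X-box in the promoters of many ciliary genes.

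The X-box core GTTGCC, searched on both strands, was present in the promoter windows of 17 of the 37 members that have a window in RefSeq (250 bases before to 50 after a start site, build GRCm38.p6), which is 45.9%. Among all 27025 genes with a window it was present in 14.1%. TAATCC, the core letters bound by the photoreceptor factor CRX, was present in 3 of 37 members (8.11%) and in 8.14% of all genes. A core followed, after at most 3 bases, by the relaxed mirror GGNNAC, or the reverse complement of this pair, was present in 6 of 37 members (16.2%) and in 1.38% of all genes. This pair was added after the single core had been counted. The stretches below are the parts of the windows around the core in the 5 members whose core lies before both the RefSeq and the GENCODE start of the gene. They are shown because several RFX genes differed between the groups in the measurements given last, and the core, or its reverse complement in Ift140, is in capitals.
Bbs7, chr3:36613478-36613537, minus strand: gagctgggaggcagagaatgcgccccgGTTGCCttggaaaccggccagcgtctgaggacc
Ift140, chr17:25015950-25016009, plus strand: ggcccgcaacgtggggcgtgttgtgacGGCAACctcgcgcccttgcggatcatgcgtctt
Ift57, chr16:49699180-49699232, plus strand: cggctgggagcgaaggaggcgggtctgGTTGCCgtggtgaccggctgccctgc
Kif3a, chr11:53567244-53567303, plus strand: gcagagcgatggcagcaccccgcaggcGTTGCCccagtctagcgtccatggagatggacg
Tctn3, chr19:40612339-40612398, minus strand: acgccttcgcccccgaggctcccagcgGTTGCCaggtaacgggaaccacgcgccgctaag

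The cores lay 121 (Bbs7), 109 (Ift140), 87 (Ift57), 98 (Kif3a) and 140 (Tctn3) bases before the RefSeq start. The windows of Bbs7, Ift57 and Tctn3 also held the mirrored pair. A match of letters is a description of the window and not a measured binding site.

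Between 26171887 and 30201517 reads were counted on genes in a mouse. Levels are CPM, counts scaled to a fixed library size with TMM factors. Retinal identity was checked with 10 rod genes, whose summed level was 78346 to 89897 CPM in naïve, 45659 to 63748 CPM in vehicle and 64166 to 79779 CPM in TD139 mice. Microglial genes summed to 51.0 to 58.1, 179 to 278 and 39.3 to 116 CPM in the same order. Genes of the lens differed between mice of 1 group by far more than this, with a sum of 2.42 to 6907 CPM among vehicle mice. Chi-square over degrees of freedom was 1.63 to 1.80 for the 2 runs of each mouse and 16.8 to 73.1 for mice of the same group, so runs were summed. Reads on no annotated feature were 19.1 to 19.9% in naïve, 16.5 to 19.4% in vehicle and 21.3 to 22.8% in TD139 mice, and ambiguous reads were 0.374 to 0.402%, 0.417 to 0.471% and 0.303 to 0.363% in the same order. TD139 mice lay apart from the other groups in both shares, and the part of this in the ciliary values was not tested.

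Ciliary genes spanned a wide range of levels. Per kilobase of transcript, and averaged over all mice, Unc119 was the most abundant at 1814 CPM per kb, followed by Arl3 at 228 and Rpgrip1 at 98.3. Bbs4 (76.4), Bbs7 (58.6), Bbs2 (51.3) and Ift20 (50.6 CPM per kb) came next. Ttc21a (0.907), Kif17 (2.67), Tctn1 (3.16) and Wdr19 (3.85 CPM per kb) were the least abundant. The spread between mice was small for most members, with a median coefficient of variation of 9.43% in naïve, 12.8% in vehicle and 10.2% in TD139 mice.

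At 4 days after the light, no ciliary gene was higher and 11 of 42 were lower in vehicle than in naïve mice at an adjusted p under 0.05 in edgeR's quasi-likelihood test. Over all tested genes, 4.91% were called higher and 2.89% lower in this comparison. The 11 genes were Bbs2, Bbs4, Bbs5, Bbs9, Bbs12, Ift122, Ttc21a, Cc2d2a, Nphp4, Rpgrip1 and Unc119. At an unadjusted p under 0.05, 0 members were higher and 26 lower, against 14.4% and 13.2% of all genes, and DESeq2 and limma voom also called 0 higher. The log2 fold change, given with its standard error (SE), was negative for 38 of the 42 members. Their median was −0.35, where the median of all genes was −0.002. In 24 members every vehicle mouse lay below every naïve mouse, which was so for 16.6% of all genes. No member passed both an adjusted p under 0.05 and the log2 fold change of 2 in size that the study used as its cut-off, in any of the 3 comparisons, where 1.24% of all genes passed both between vehicle and naïve, 1.65% between TD139 and vehicle and 0.0263% between TD139 and naïve mice.

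Against vehicle mice, 24 of 42 ciliary genes were higher and 3 were lower in TD139 mice. The background was high here, with 17.2% of all genes called higher and 16.2% called lower. The median of the members was 0.37 and that of all genes −0.02. In 23 members every TD139 mouse lay above every vehicle mouse, and in 5 every one lay below, where these shares were 26.0% and 25.4% over all genes. The lower members were the IFT-B subunits Ift27, Ift46 and Ift57.

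In edgeR, few ciliary genes were called between TD139 and naïve mice. No member was higher and 2 were lower, Ift27 and Ift43, where 2.72% of all genes were called higher and 2.38% lower. At an unadjusted p under 0.05, 3 members were higher and 6 lower, against 15.5% and 14.1% of all genes. DESeq2 called 1 higher and limma voom 4, and both called more members lower than edgeR did. The median log2 fold change was 0.04 for the members and −0.002 for all genes. All 3 TD139 mice lay above the naïve mice in 3 members and below them in 8, against 15.3% and 16.8% of all genes. Each pair of these comparisons has a group of 3 mice in common, so the comparisons are not independent of each other.

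**Figure D1:**
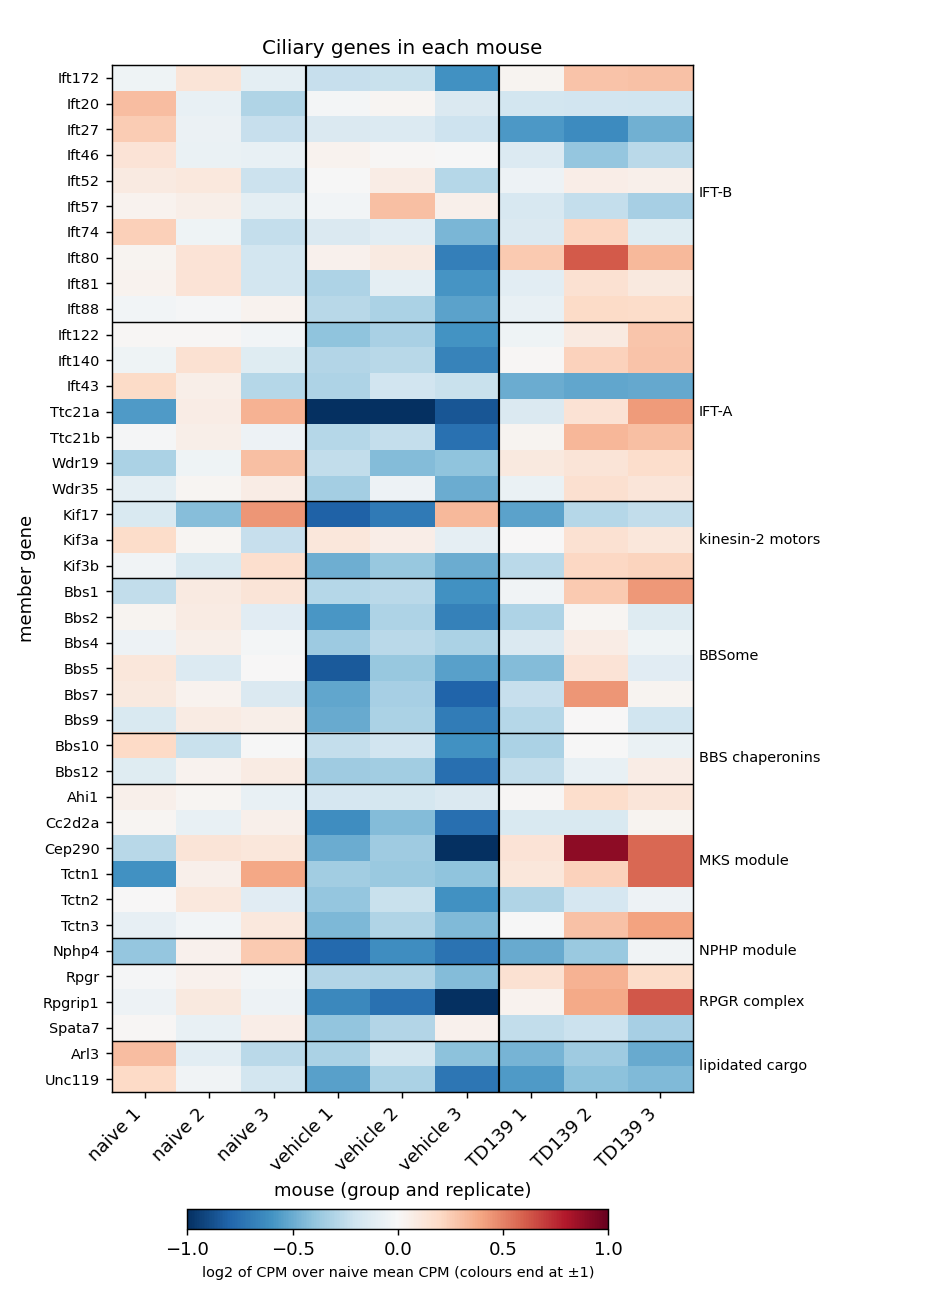
Heat map of the log2 of the CPM over the mean CPM of the naïve mice for 40 of the 42 ciliary genes (rows, ordered by role) in each of the 9 mice (columns); the colours end at −1 and 1. The vehicle columns are mostly blue, with medians over all 42 of −0.33, −0.28 and −0.52, while the TD139 medians are −0.14, 0.11 and 0.06.

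Single mice stood apart within their groups. The median log2 ratio of the members to the naïve mean was 0.005, 0.03 and −0.04 in the naïve mice. It was −0.33, −0.28 and −0.52 in the vehicle mice and −0.14, 0.11 and 0.06 in the TD139 mice, so the injected groups did not overlap in this median. Vehicle mouse 3 had the lowest level of its group in 30 of the 42 members and vehicle mouse 2 the highest in 30. TD139 mouse 1 had the lowest level of its group in 32 of 42. The calls changed when 1 mouse was left out. Of the 11 members called lower in vehicle than in naïve mice, 0 were called in all 9 fits that left out 1 mouse, while the median log2 fold change of the members stayed between −0.41 and −0.30. Leaving out naïve mouse 1, 2 or 3 gave 1, 0 and 2 lower members, and leaving out vehicle mouse 1, 2 or 3 gave 2, 9 and 0. TD139 mice are not compared here but are part of the same fit, and leaving out mouse 1, 2 or 3 of that group gave 17, 8 and 7. For TD139 against vehicle mice, 10 of the 27 called members were called in all 9 fits. These 10 were Ift122, Ift140, Ift172, Ttc21a, Ttc21b, Cc2d2a, Cep290, Tctn3, Rpgr and Rpgrip1.

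Fold changes followed the length of the transcripts, as they did over all genes. Across the 42 members, Spearman's correlation of transcript length with log2 fold change was 0.63 for TD139 against vehicle mice and 0.67 against naïve mice. For vehicle against naïve mice it was −0.30. Over the 15066 tested genes with a known length it was 0.50 for TD139 against vehicle, 0.61 for TD139 against naïve and −0.10 for vehicle against naïve mice. All are correlations across genes measured in shared libraries, and genes are no replicates. Of the 14 longest members (4470 to 8211 bases), 12 were higher and 0 lower in TD139 than in vehicle mice, and 35.2% of all genes in that range of lengths were higher. Of the 14 shortest (783 to 2687 bases), 4 were higher and 2 lower, where 3.70% and 28.1% of all genes of such lengths were. Every mouse was therefore also fitted with its own correction for transcript length and GC content. After it, 14 members were higher and 2 lower in TD139 than in vehicle mice (9.56% and 9.59% of all genes), and 18 were lower in vehicle than in naïve mice (6.22% of all genes). Of the 24 members called higher without the correction, 11 were still called. All 11 members called lower in vehicle mice were still called. Between TD139 and naïve mice, edgeR called 0 genes of the whole table after the correction, and 1 member was higher and 4 were lower at an unadjusted p under 0.05.

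**Figure D2:**
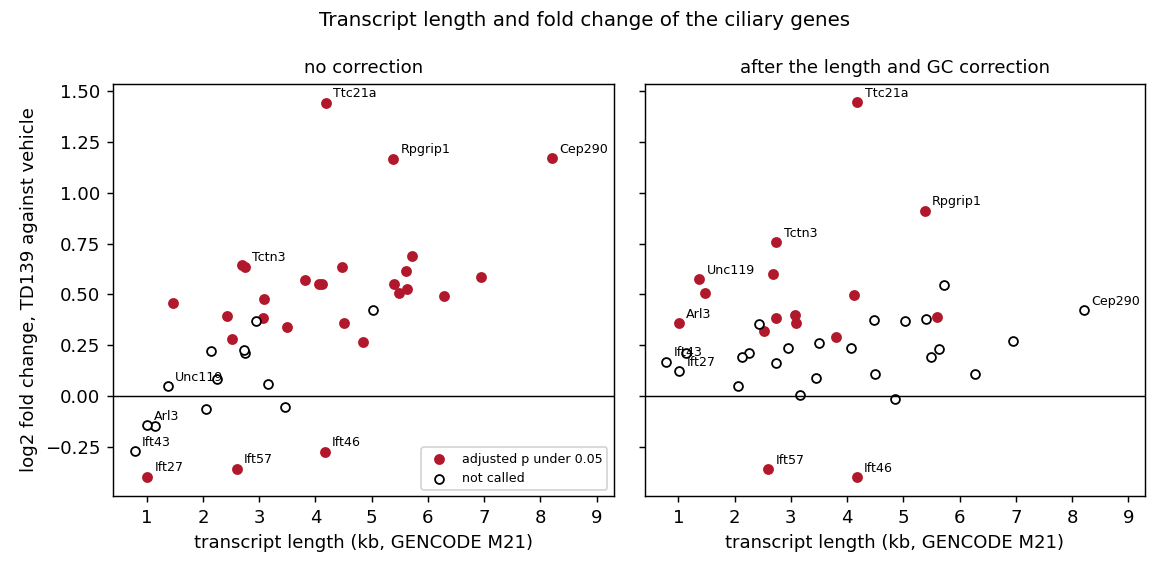
Log2 fold change of 40 of the 42 ciliary genes in TD139 against vehicle mice (vertical axis) by transcript length in kilobases (horizontal axis), without (left) and with (right) the correction for length and GC content; filled points have an adjusted p under 0.05. On the left the points rise with length (Spearman's correlation 0.63 over all 42). On the right they do not (0.07 over all 42), as the correction removes such a trend by design. There Ttc21a, Rpgrip1 and Tctn3 stay high and Ift46 and Ift57 stay low.

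IFT-B subunits form the trains that move from base to tip. Of the 10 members 0 were called in vehicle against naïve mice, where 3 were lower at an unadjusted p under 0.05 and the median log2 fold change was −0.15. In TD139 against vehicle mice, 3 were higher and 3 lower. The higher ones were Ift172, Ift80 and Ift88, with log2 fold changes of 0.55, 0.55 and 0.48. After the length and GC correction Ift88 was still called (0.36, adjusted p = 0.0327) and Ift80 was not (0.24, adjusted p = 0.37).
Ift172, the largest IFT-B protein, was measured at 76.3, 85.7 and 73.5 CPM in naïve mice, 67.0, 67.3 and 51.5 CPM in vehicle mice and 80.2, 95.8 and 96.0 CPM in TD139 mice. Vehicle mouse 3 was the lowest of all, and every TD139 mouse was above every vehicle mouse (log2 fold change 0.55, SE 0.12, adjusted p = 0.00991). With the length and GC correction it was 0.38 (adjusted p = 0.0507). Ift81, which helps to bind tubulin, was at 85.8, 92.1 and 73.8 CPM in naïve, 67.9, 78.3 and 55.8 CPM in vehicle and 77.9, 93.1 and 89.6 CPM in TD139 mice. The groups overlapped and Ift81 was not called in any comparison (adjusted p = 0.0537 for TD139 against vehicle mice).

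The 3 lower IFT-B members were at similar levels in naïve and vehicle mice. Ift57 (ENSMUSG00000032965.11, chr16:49699233-49765126, plus strand), a peripheral subunit of the complex, was at 38.5, 39.1 and 35.0 CPM in naïve, 36.9, 46.3 and 38.8 CPM in vehicle and 33.6, 31.8 and 29.9 CPM in TD139 mice. All TD139 mice lay below all mice of the other groups. The log2 fold change against vehicle mice was −0.36 (SE 0.11, adjusted p = 0.0297), and the correction left it at −0.36 (adjusted p = 0.0305).
Ift46 (ENSMUSG00000002031.12, chr9:44767908-44793447, plus strand), a core subunit, was at 83.0, 72.2 and 71.7 CPM in naïve, 77.5, 76.2 and 75.4 CPM in vehicle and 68.7, 57.9 and 62.9 CPM in TD139 mice. Again every TD139 mouse was below every other mouse. The log2 fold change against vehicle mice was −0.27 (SE 0.10, adjusted p = 0.0487) and −0.40 after the correction (adjusted p = 0.0238). The corrected value rests on a transcript length of 4169 bases for Ift46, and no other length was tried.
Ift27 (ENSMUSG00000016637.7, chr15:78159463-78174107, minus strand), a small GTPase that links the trains to BBSome exit, was at 39.2, 31.6 and 28.0 CPM in naïve, 29.7, 30.0 and 28.5 CPM in vehicle and 22.2, 21.3 and 23.6 CPM in TD139 mice. The TD139 mice did not overlap either group. Ift27 was lower than in vehicle mice (log2 fold change −0.40, SE 0.13, adjusted p = 0.0334) and lower than in naïve mice (−0.56, SE 0.13, adjusted p = 0.0431). Its transcript is short, at 1013 bases, and with the correction the first of these turned to 0.12 (adjusted p = 0.395) and the second became −0.13 (adjusted p = 0.581). The other 4 IFT-B members, Ift20, Ift52, Ift74 and Ift81, had log2 fold changes between −0.14 and 0.37 against vehicle mice and were not called.

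IFT-A subunits return the trains and admit membrane receptors. All 7 had a negative log2 fold change against naïve mice, of which Ift122 and Ttc21a passed the test. In TD139 against vehicle mice 6 of 7 were higher, with a median of 0.55, and Ift43 was not called.
Ift140, a core IFT-A subunit, was at 64.0, 73.3 and 60.5 CPM in naïve, 53.7, 54.4 and 41.5 CPM in vehicle and 66.5, 77.4 and 80.5 CPM in TD139 mice. Vehicle mice lay below all others, and the log2 fold change from vehicle to TD139 mice was 0.58 (SE 0.13, adjusted p = 0.0089). It was 0.27 after the correction (adjusted p = 0.147). Ift122, a further core subunit, was at 75.1, 74.8 and 73.1 CPM in naïve, 56.3, 59.5 and 49.0 CPM in vehicle and 72.3, 79.0 and 90.2 CPM in TD139 mice. It was lower in vehicle mice (log2 fold change −0.44, SE 0.11, adjusted p = 0.0346) and higher with TD139 (0.55, SE 0.11, adjusted p = 0.00644), and both calls were kept with the correction, at −0.42 and 0.50.

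Ttc21a (ENSMUSG00000032514.11, chr9:119937606-119967793, plus strand), a paralog of the IFT-A subunit gene Ttc21b, had the lowest level of all members and, in vehicle against naïve and in TD139 against vehicle mice, the largest fold changes. Between TD139 and naïve mice it was at 0.16. It was at 3.04, 4.75 and 5.72 CPM in naïve, 1.502, 1.55 and 2.49 CPM in vehicle and 4.08, 4.98 and 6.05 CPM in TD139 mice. The vehicle mice lay below every other mouse. The log2 fold change was −1.28 against naïve mice (SE 0.30, adjusted p = 0.0307) and 1.44 from vehicle to TD139 (SE 0.30, adjusted p = 0.00756), and the correction left both at −1.28 and 1.44. Ttc21b itself was at −0.41 (adjusted p = 0.0932) and 0.64 (adjusted p = 0.00942), and the latter was 0.37 after the correction (adjusted p = 0.0726).
Ift43 (ENSMUSG00000007867.9, chr12:86082541-86162459, plus strand), the smallest IFT-A subunit, was at 50.02, 45.7 and 36.0 CPM in naïve, 35.4, 38.5 and 37.6 CPM in vehicle and 31.1, 30.6 and 30.8 CPM in TD139 mice. All TD139 mice were below all others, and Ift43 was lower than in naïve mice (log2 fold change −0.51, SE 0.12, adjusted p = 0.0439). Its transcript of 783 bases is the shortest of all members, and after the correction this value was −0.13 (adjusted p = 0.522), while that of vehicle against naïve mice was −0.29 and called (adjusted p = 0.0386). Wdr19 and Wdr35 were higher in TD139 than in vehicle mice, by 0.49 and 0.36, and neither was called after the correction.

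Of the kinesin-2 motors, which pull the trains outwards, Kif3b was higher in TD139 than in vehicle mice and the other two were not called. Kif3a and Kif3b form 1 motor together. Kif3a was at 164, 146 and 123 CPM in naïve, 156, 151 and 135 CPM in vehicle and 145, 160 and 156 CPM in TD139 mice, with all groups overlapping and log2 fold changes of 0.03, 0.06 and 0.09.
Kif3b was at 131, 122 and 151 CPM in naïve, 95.8, 104 and 95.6 CPM in vehicle and 112, 155 and 157 CPM in TD139 mice. Its vehicle mice lay below all others (log2 fold change −0.46, SE 0.13, adjusted p = 0.0577 against naïve mice, and 0.53, SE 0.13, adjusted p = 0.0138 from vehicle to TD139). After the correction the first value was −0.39 and called (adjusted p = 0.0443), and the second was 0.23 and not called (adjusted p = 0.16). A test of the difference between Kif3a and Kif3b was not made. The homodimeric motor gene Kif17 was low and variable, with a mean of 10.7 ± 3.38 CPM in naïve, 8.65 ± 4.07 CPM in vehicle and 8.35 ± 0.881 CPM in TD139 mice (SD, n = 3 each).

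The BBSome was the role group in which every member was called with TD139. In all 6 genes every vehicle mouse lay below every naïve mouse, and Bbs2, Bbs4, Bbs5 and Bbs9 passed the test (median log2 fold change −0.51). They were called higher in TD139 than in vehicle mice (0.28 to 0.64), and none was called against naïve mice (−0.16 to 0.23).
Bbs4, a subunit at the edge of the complex, was at 201, 217 and 205 CPM in naïve, 161, 172 and 167 CPM in vehicle and 188, 219 and 201 CPM in TD139 mice. The vehicle mice were the lowest 3 of the 9 (log2 fold change −0.32, SE 0.09, adjusted p = 0.0483, and 0.28, SE 0.09, adjusted p = 0.0287). Bbs7, part of the core of the complex, was at 183, 175 and 154 CPM in naïve, 119, 136 and 97.7 CPM in vehicle and 146, 232 and 174 CPM in TD139 mice. TD139 mouse 2 was the highest of all, and the log2 fold change from vehicle to TD139 was 0.64 (SE 0.17, adjusted p = 0.0166), while that from naïve to vehicle, −0.54, was not called (adjusted p = 0.074). After the correction 5 of the 6 BBSome genes were still called higher in TD139 mice, all but Bbs9 (0.26, adjusted p = 0.107).
The chaperonin-like genes that help to assemble the BBSome were Bbs10 and Bbs12. Bbs12 was at 39.6, 44.1 and 45.5 CPM in naïve, 33.6, 33.8 and 25.6 CPM in vehicle and 36.3, 40.8 and 45.2 CPM in TD139 mice. Vehicle mice lay below all others, at −0.47 (SE 0.13, adjusted p = 0.0494) against naïve mice and 0.40 (SE 0.13, adjusted p = 0.0379) with TD139, the latter 0.35 and not called after the correction (adjusted p = 0.0784). Bbs10 was at 18.0, 13.5 and 15.6 CPM in naïve, 13.3, 13.7 and 10.3 CPM in vehicle and 12.6, 15.7 and 15.0 CPM in TD139 mice. Its groups overlapped and it was not called.

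**Figure D3:**
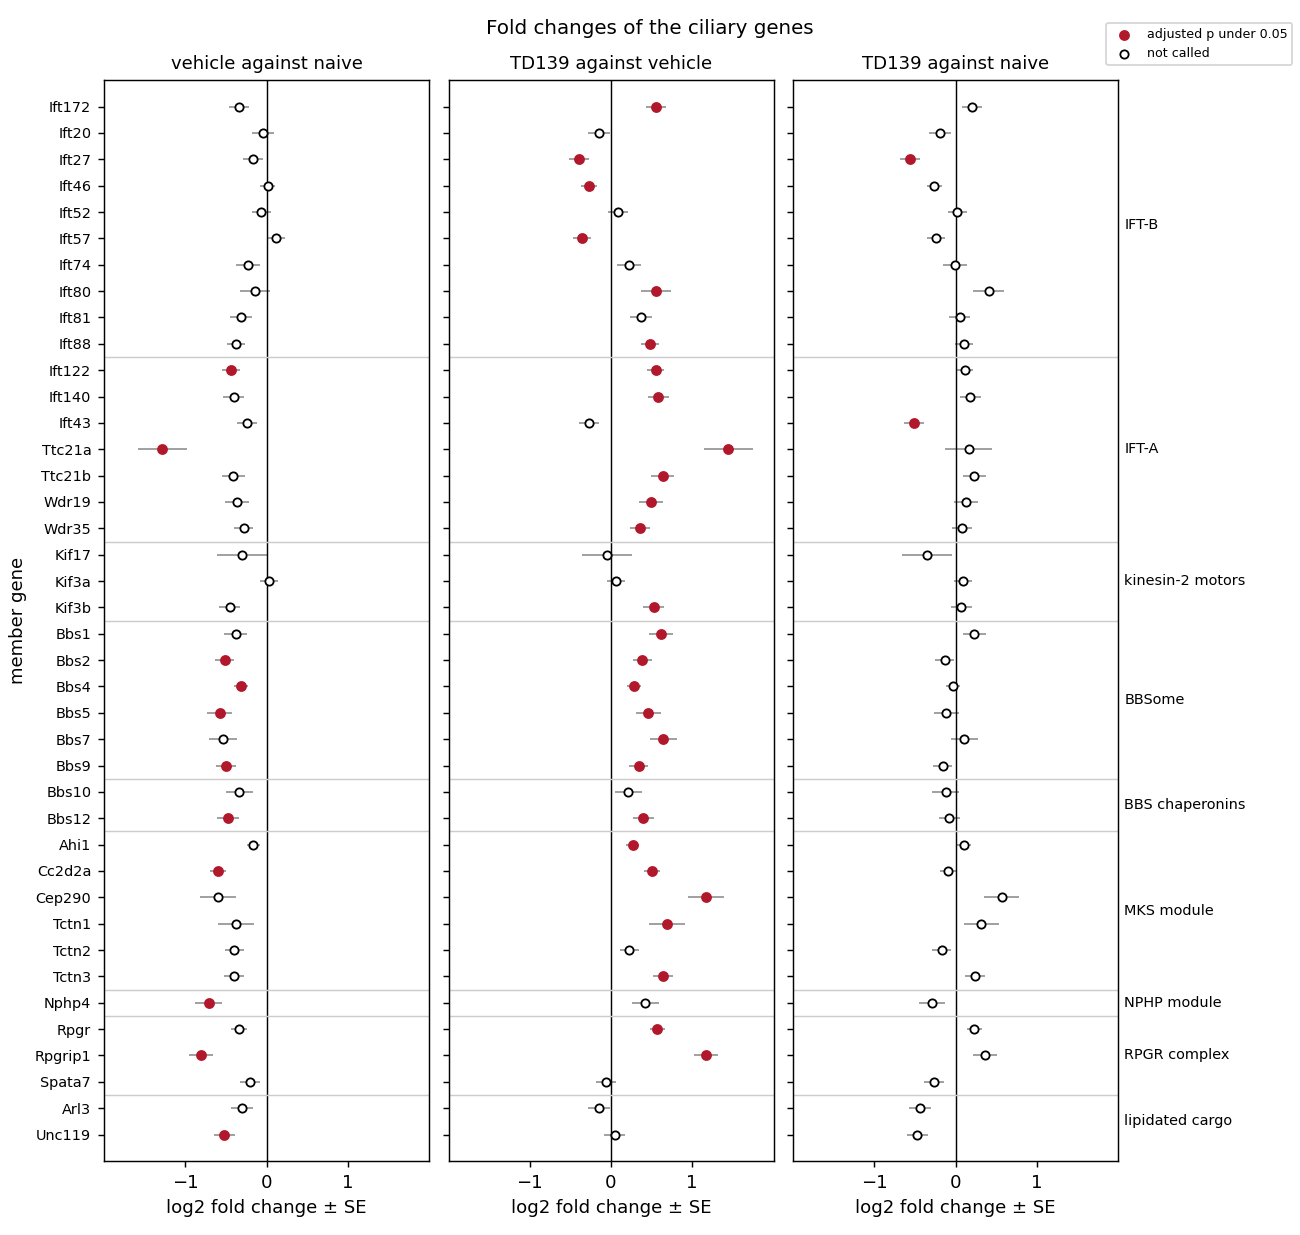
Log2 fold change with its SE (edgeR, 3 mice per group) of 40 of the 42 ciliary genes in the 3 comparisons, ordered by role; filled points have an adjusted p under 0.05. In the left panel 11 points are filled and all lie below 0, in the middle panel 24 lie above and 3 below 0, and in the right panel only Ift27 and Ift43 are filled.

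The MKS module is the part of the transition zone that holds the membrane gate. Its 6 members had negative fold changes in vehicle against naïve mice, and Cc2d2a passed the test (−0.60, adjusted p = 0.0171). TD139 mice were higher than vehicle mice in 5 of 6, with Tctn2 not called (0.23, adjusted p = 0.15). After the correction Tctn3 was still called and Tctn2 was called too, while Ahi1, Cc2d2a, Cep290 and Tctn1 were not.
Cep290 (ENSMUSG00000019971.10, chr10:100487558-100574840, plus strand), which spans the gap between microtubules and membrane in the connecting cilium, was at 92.4, 123 and 121 CPM in naïve, 79.6, 87.6 and 54.8 CPM in vehicle and 124, 208 and 167 CPM in TD139 mice. The vehicle mice lay below and the TD139 mice above the naïve mice, and TD139 mouse 2 was the highest. Its log2 fold change was −0.60 in vehicle against naïve mice (SE 0.22, adjusted p = 0.114) and 1.17 from vehicle to TD139 (SE 0.22, adjusted p = 0.00701). Cep290 has the longest transcript of the members, 8211 bases, and after the correction these were −0.51 (adjusted p = 0.0472) and 0.42 (adjusted p = 0.0715). In the annotation, 7.58% of its exonic bases are shared with 4930430F08Rik on the opposite strand, whose log2 fold change from vehicle to TD139 was 0.42.
Ahi1, whose protein jouberin binds at the same zone, was at 202, 197 and 185 CPM in naïve, 173, 173 and 177 CPM in vehicle and 196, 220 and 212 CPM in TD139 mice. The vehicle mice were close together and below all others. Ahi1 differed by −0.16 against naïve mice (adjusted p = 0.226) and 0.27 with TD139 (SE 0.08, adjusted p = 0.0295), but −0.02 in the latter comparison after the correction. The tectonic genes Tctn1 and Tctn3 were higher in TD139 than in vehicle mice, by 0.69 and 0.64. Tctn3 was called in every fit that left out a mouse and after the correction (0.76, adjusted p = 0.0103). Tctn1 shares 19.0% of its exonic bases with Hvcn1 on the opposite strand, a gene that moved the other way (−1.48).

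In the NPHP module, which works with the MKS module at the transition zone, Nphp4 was called lower in vehicle than in naïve mice. It was at 39.5, 53.2 and 61.9 CPM in naïve, 30.1, 33.5 and 30.8 CPM in vehicle and 36.4, 39.9 and 50.3 CPM in TD139 mice. Every vehicle mouse was below every other mouse (log2 fold change −0.71, SE 0.16, adjusted p = 0.0297 against naïve mice, and 0.42, SE 0.16, adjusted p = 0.0675 with TD139).

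The RPGR complex of the connecting cilium held the member with the smallest adjusted p. Rpgrip1 (ENSMUSG00000057132.16, chr14:52110704-52163546, plus strand) encodes the scaffold that anchors RPGR in the connecting cilium and is expressed mainly in photoreceptors. It was at 534, 593 and 537 CPM in naïve, 354, 330 and 269 CPM in vehicle and 569, 721 and 852 CPM in TD139 mice. The vehicle mice lay far below the others, and the TD139 mice overlapped the naïve mice at the lower end. In vehicle against naïve mice it was at −0.80 on the log2 scale (SE 0.15, adjusted p = 0.0192), 1.17 (SE 0.15, adjusted p = 0.005) with TD139, and 0.36 (adjusted p = 0.133) in TD139 against naïve mice. After the correction −0.80 became −0.75 and 1.17 became 0.91, both called. Of its exonic bases 8.70% are shared with Supt16 on the opposite strand, whose log2 fold changes were −0.07 and 0.06.
Rpgr, on chromosome X, was at 36.3, 37.7 and 36.0 CPM in naïve, 30.0, 29.8 and 27.2 CPM in vehicle and 40.7, 46.7 and 41.7 CPM in TD139 mice. The groups were in 3 separate ranges. Rpgr differed by −0.34 (SE 0.10, adjusted p = 0.0536) against naïve mice and 0.57 (SE 0.10, adjusted p = 0.00568) with TD139, with corrected values of −0.28 (adjusted p = 0.0415) and 0.29 (adjusted p = 0.0317), both called. Spata7, whose protein keeps RPGR and RPGRIP1 in place along the connecting cilium, was at 26.3 ± 1.26, 22.9 ± 3.74 and 21.9 ± 0.933 CPM (SD, n = 3 each) and was not called.

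**Figure D4:**
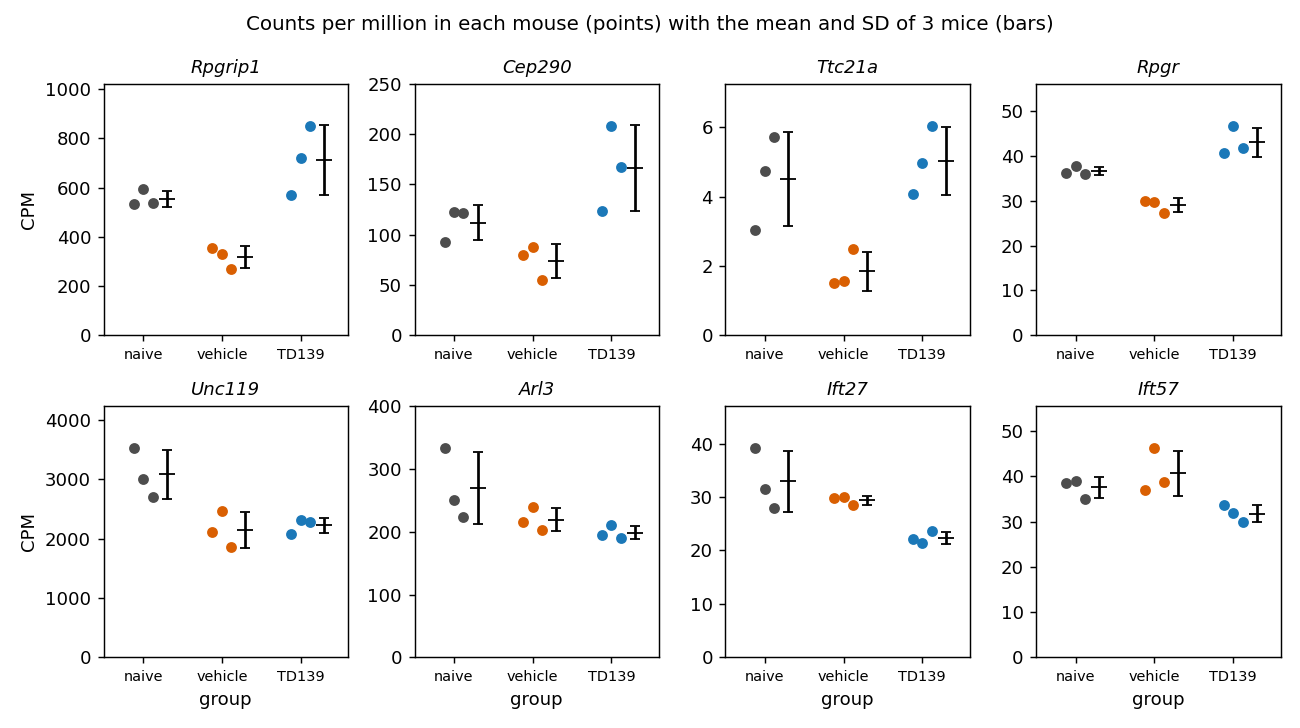
CPM of 8 ciliary genes in each mouse (points) with the mean and SD of 3 mice (bars) in naïve, vehicle and TD139 mice; each axis starts at 0. Rpgrip1, Cep290, Ttc21a and Rpgr are lowest in the vehicle mice, Unc119 and Arl3 have lower means in both injected groups (Arl3 not called), and Ift27 and Ift57 are lowest in the TD139 mice.

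The carriers of lipidated cargo were the most abundant members per kilobase. Unc119 (ENSMUSG00000002058.13, chr11:78343482-78349164, plus strand), which shields the lipid tail of rod transducin on its way to the outer segment, was at 3536, 3011 and 2710 CPM in naïve, 2113, 2473 and 1869 CPM in vehicle and 2083, 2318 and 2275 CPM in TD139 mice. Both injected groups lay below the naïve mice and overlapped each other. Unc119 was at −0.52 (SE 0.13, adjusted p = 0.0363) in vehicle and −0.47 (SE 0.13, adjusted p = 0.0543) in TD139 against naïve mice, and 0.05 (adjusted p = 0.788) between the injected groups.
Arl3, the small GTPase that releases cargo from UNC119, was at 334, 251 and 224 CPM in naïve, 216, 239 and 203 CPM in vehicle and 196, 210 and 190 CPM in TD139 mice. Naïve mouse 1 stood above the rest and Arl3 was not called without the correction. With it, Arl3 was lower in vehicle than in naïve mice (−0.38, adjusted p = 0.0366). Both transcripts are short (1371 and 1005 bases), and with the correction both were called higher in TD139 than in vehicle mice, Unc119 by 0.57 (adjusted p = 0.0154) and Arl3 by 0.36 (adjusted p = 0.0355). Against naïve mice the corrected values of TD139 mice were −0.06 and −0.02.

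Rod genes changed in the same comparisons. Of 10 rod markers, 8 were lower in vehicle than in naïve mice (median log2 fold change −0.62), 5 were higher in TD139 than in vehicle mice (0.43), and 0 were called between TD139 and naïve mice (−0.17), where 2 were lower at an unadjusted p under 0.05. Of 7 cone markers edgeR called 0 in any comparison, and at an unadjusted p under 0.05, 1 was lower in vehicle than in naïve mice, 2 were higher in TD139 than in vehicle mice and 1 was lower in TD139 than in naïve mice. With the length and GC correction the cone marker Arr3 was called higher in TD139 than in vehicle mice (1.00, adjusted p = 0.0459), and 7 of the 10 rod markers were called higher there. Of 7 microglial markers, 5 were higher in vehicle than in naïve mice and 5 were lower in TD139 than in vehicle mice. In bulk retina, fewer cells of a type and less RNA per cell cannot be told apart, and the part of rod number or of other cells in the ciliary values was not tested. Genes of motile cilia, which the retina lacks, were low, with a sum of 22.9 to 39.4 CPM over the 6 tested genes in all mice. Of these only Ccdc39 was called, higher in TD139 mice than in both other groups, and after the correction only against vehicle mice.

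A further 51 tested genes of the same machinery, which do not carry the symbols above, were examined beside the members. In vehicle against naïve mice 0 were higher and 7 lower (1 and 20 at an unadjusted p under 0.05), which is 13.7% lower against 2.89% of all genes. In TD139 against vehicle mice 21 were higher and 3 lower (41.2% and 5.88%, against 17.2% and 16.2% of all genes), and in TD139 against naïve mice 1 was higher and 1 lower. Their median log2 fold changes were −0.25, 0.34 and −0.01.
Genes of the photoreceptor axoneme, the microtubule bundle inside the outer segment, had the largest median changes among these lists in vehicle against naïve and in TD139 against vehicle mice. All 6 were called higher in TD139 than in vehicle mice, and 3 were called lower in vehicle than in naïve mice. By level, Rp1 and Rp1l1, a pair of doublecortin-domain genes that stabilise the axoneme, came first, with log2 fold changes of 1.36 (adjusted p = 0.0116) and 1.16 (adjusted p = 0.00771) with TD139 and −0.80 (adjusted p = 0.121) and −0.85 (adjusted p = 0.0531) against naïve mice. After the correction the values with TD139 were 0.71 (adjusted p = 0.0452) and 0.94 (adjusted p = 0.0177), and all 6 genes were still called. Rp1l1 was then also called lower in vehicle than in naïve mice (−0.81, adjusted p = 0.0332). The 3 genes lower in vehicle mice, named after their values were seen, were Fam161a, Mak and Poc1b, at −0.99, −0.83 and −0.64.

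Among 7 further IFT genes, Traf3ip1 was lower in vehicle than in naïve mice (−0.62, adjusted p = 0.0192). Traf3ip1, Ttc26 and Ttc30a1 were higher in TD139 than in vehicle mice, by 0.43, 0.67 and 0.49, and Cluap1 was lower in TD139 than in naïve mice (−0.48, adjusted p = 0.0467). With the correction Traf3ip1 kept both calls, while Ttc26 (0.39, adjusted p = 0.0922), Ttc30a1 (0.23, adjusted p = 0.34) and Cluap1 (−0.28, adjusted p = 0.167) were no longer called. Cluap1 was then called lower in vehicle than in naïve mice (−0.32, adjusted p = 0.0285). Ttc30a1, Ttc30a2 and Ttc30b are close paralogs, so their counts are uncertain.
Dynein-2 is the motor of the return path. Its heavy chain Dync2h1 (0.82, adjusted p = 0.00568) and Wdr60 (0.57, adjusted p = 0.0172) were higher in TD139 than in vehicle mice, and the light chain Dynlrb1, which cytoplasmic dynein also uses, was lower (−0.53, adjusted p = 0.0136). These values followed transcript length, 14264 bases for Dync2h1, 3721 for Wdr60 and 788 for Dynlrb1, and none was called after the correction. Dync2h1 was then at 0.08 (adjusted p = 0.472), Wdr60 at 0.43 (adjusted p = 0.0657) and Dynlrb1 at 0.04 (adjusted p = 0.736). Wdr34, a further chain of this motor, was called only with the correction, at −0.39 in vehicle against naïve (adjusted p = 0.0335) and 0.40 in TD139 against vehicle mice (adjusted p = 0.0257). The kinesin-2 partners Kifap3 and Kif3c were not called.

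Ttc8, the BBS8 subunit of the BBSome, had log2 fold changes of −0.55 (adjusted p = 0.0401) against naïve mice and 0.53 (adjusted p = 0.0162) with TD139. Lztfl1, a regulator of BBSome traffic, was higher with TD139 (0.80, adjusted p = 0.00675), but 0.29 after the correction (adjusted p = 0.104), where Ttc8 kept both calls and Arl6, the GTPase that recruits the BBSome, was called (0.40, adjusted p = 0.0466). Of 10 further MKS genes, Mks1 was lower in vehicle than in naïve mice (−0.46, adjusted p = 0.0456). With TD139, Tmem67, Tmem231 and Rpgrip1l were higher, by 0.68, 0.39 and 0.91, and B9d2 was lower (−0.49). After the correction Tmem67 and Tmem231 were still called, Rpgrip1l was at 0.34 (adjusted p = 0.209) and B9d2 at 0.05 (adjusted p = 0.787). Mks1 and Tmem237 were then also called higher in TD139 than in vehicle mice (0.50 and 0.47), and Tmem231 and Tmem237 lower in vehicle than in naïve mice (−0.43 and −0.51). Of 4 further NPHP genes 0 were called in edgeR, and in TD139 against vehicle mice 1 of them had an unadjusted p under 0.05.
Arl13b, the ciliary GTPase that activates ARL3, was the only further cargo gene called without the correction, and Pde6d, which carries prenylated proteins, was also called with it (0.49 in TD139 against vehicle mice, adjusted p = 0.0173). Arl13b had log2 fold changes of −0.87 (adjusted p = 0.0304) against naïve mice and 1.08 (adjusted p = 0.00639) with TD139, where Arl3 itself was at −0.30 and −0.14. With the correction Arl13b kept both calls, at −0.82 (adjusted p = 0.0197) and 0.84 (adjusted p = 0.0144).

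Of 6 tested RFX and FOXJ1 transcription factor genes, Rfx1, Rfx3, Rfx5 and Rfx7 were higher and Rfx2 was lower in TD139 than in vehicle mice, with log2 fold changes of 0.38, 1.04, 0.53, 0.91 and −0.75. Rfx7 was also higher than in naïve mice (0.78, adjusted p = 0.0428). The transcripts of Rfx3 and Rfx7 are long (9146 and 7988 bases). After the correction Rfx3 was at 0.33 against vehicle mice and no longer called (adjusted p = 0.171), and Rfx7 was at 0.36 (adjusted p = 0.0329), and at 0.34 against naïve mice (adjusted p = 0.18). Rfx1, Rfx2 and Rfx5 kept their calls, and Rfx1 was then also lower in vehicle than in naïve mice (−0.41, adjusted p = 0.0237). Rfx5 is best known as a factor of MHC class II promoters. Foxj1, the master factor of motile cilia, was not called. With TD139, 11 of 17 members with the X-box core in their promoter window were higher and 2 lower, against 11 higher and 1 lower of 20 members without it. In vehicle against naïve mice, 3 of 17 and 7 of 20 were lower. Of the 5 members whose sequences are printed above, Bbs7, Ift140 and Tctn3 were higher with TD139, Ift57 was lower and Kif3a was not called.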

How the data were processed

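For each mouse and each of 2 sequencing runs, the authors deposited whole-number counts of reads per gene symbol, without scaling, made with BaseSpace RNA Express. Libraries came from a stranded poly(A) kit. The labels name the build mm10, while the annotation and the strand setting of the counting are not given in the sources used here. Reads on no feature (16.5 to 22.8% of reads) or ambiguous (0.303 to 0.471%) were left out. Runs were summed, and each mouse was 1 replicate. Whether mice shared a litter, cage or day is not given in the sources used here, so p-values measure the spread between these mice.

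Counts were tested in edgeR 4.0.16 (R 4.3.3) with filterByExpr, TMM and the robust quasi-likelihood F test, all 9 mice in 1 fit. The standard error is the size of the log2 fold change over the square root of F. P-values were adjusted by Benjamini and Hochberg over 15196 genes, and a gene was called at an adjusted p under 0.05. With 3 mice in each group the smallest exact permutation p is 0.1, so no such test was used. Positions, lengths and GC content are from GENCODE M21 (GRCm38), which matched 98.36% of symbols. Length and GC content are those of the longest transcript of a gene, with transcripts of GENCODE's basic set and then protein-coding ones preferred. The transcript used in the retina may differ. The length and GC correction fitted 2 natural splines (4 degrees of freedom each) to the log ratios of each mouse and was entered as an offset. It takes out any trend with length or GC content, whether technical or not.

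The members and all lists were chosen with earlier results of these data known. Values in every mouse are given for the 2 most abundant members of each role, and in each comparison for the 3 highest and 3 lowest called members. In lists of further genes, called genes are named where at most 5 were called, otherwise the 2 most abundant. Alternatives were DESeq2 1.42.0, limma voom 3.58.1 with quality weights, other scalings and filters, single runs, only the groups compared, the replicate number as a block, and each mouse left out. The steps were tested on simulated data. Values of some genes that fall under the naming rules are not reported here.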

Additional observations from a re-analysis of the deposited data

How the results depend on the processing

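Of 22 members with values in every mouse, each in 3 comparisons under 21 alternatives, 1143 values kept their direction and their side of the threshold, 139 were no longer called, 65 became called and 39 changed sign. The number of members lower in vehicle than in naïve mice was 11, and 7 with library size alone, 19 with DESeq2, 26 with limma voom, 18 with the length and GC correction and 17 with the correction and the replicate block. It ranged from 0 to 17 when 1 mouse was left out. Members higher in TD139 than in vehicle mice numbered 24, and 15 with library size alone and 14 with the correction, and 10 to 26 when a mouse was left out. Lower members numbered 3, and 1 with run 1 alone, and 0 to 4 when a mouse was left out. For TD139 against naïve mice, 0 were higher, but 1 with DESeq2 and 4 with limma voom, and 0 to 2 when a mouse was left out. Lower members numbered 2, and 5 with DESeq2, 7 with limma voom, 1 with run 2 alone, 0 with only the 2 groups compared, 0 with the replicate block, 0 with the correction and 0 with both, and 0 to 4 when a mouse was left out. The member medians ranged from −0.41 to −0.30, from 0.29 to 0.47 and from −0.03 to 0.07 when a mouse was left out. The cause of these changes was not tested.

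Correlations between mice of different groups were −0.26 to 0.28 with the same replicate number and −0.28 to 0.23 with different numbers. No pairing by number was seen, but deviations from means of 3 mice cannot exclude one. The replicate block gave 9 members lower in vehicle than in naïve mice, and 25 higher and 3 lower in TD139 than in vehicle mice.

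The values that changed sign were the following log2 fold changes. With the length and GC correction, and with the correction and the replicate block, TD139 against vehicle mice gave −0.016 and −0.016 for Ahi1, 0.36 and 0.36 for Arl3, 0.12 and 0.12 for Ift27 and 0.17 and 0.17 for Ift43. Against naïve mice the same settings gave 0.014 and 0.013 for Bbs4, −0.081 and −0.068 for Ift140, −0.047 and −0.036 for Ift81, −0.11 and −0.11 for Ahi1, −0.092 and −0.092 for Cep290 and −0.16 and −0.17 for Kif3b. With limma voom, Bbs10 was at 0.077 and Ift81 at −0.0087 in TD139 against naïve mice. With library size alone, Kif3a was at −0.027 and Unc119 at −0.036 in TD139 against vehicle mice. With run 2 alone, Kif3a was at −0.0090 in that comparison, and with run 1 alone, Kif3a was at −0.0047 and Ift46 at −0.033 in vehicle against naïve mice. With 1 mouse left out, vehicle against naïve mice gave −0.067 to 0.14 for Kif3a and −0.018 to 0.097 for Ift46. TD139 against vehicle mice gave −0.045 to 0.16 for Unc119. TD139 against naïve mice gave −0.15 to 0.0078 for Bbs12, −0.087 to 0.027 for Bbs4, −0.088 to 0.26 for Bbs7, −0.029 to 0.13 for Ift81, −0.0073 to 0.20 for Kif3a and −0.046 to 0.38 for Ttc21a. The member with the fewest counts was Ttc21a, with a mean of 103 counts per mouse.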

Other observations

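Ift22, an IFT-B gene, is counted in these tables under its older symbol Rabl5 and so was not among the 42. Its log2 fold changes were 0.12 in vehicle against naïve mice, −0.20 in TD139 against vehicle mice and −0.08 in TD139 against naïve mice, and it was not called.

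Markers of other retinal cell types were also measured in vehicle against naïve mice. Of 6 bipolar, 5 amacrine and 5 ganglion cell markers 0 were called by edgeR in that comparison, and 1, 1 and 0 of them were higher at an unadjusted p under 0.05. With the length and GC correction the amacrine markers Gad2 and Tfap2b were called higher there (0.37 and 0.37). Of 5 Müller glia markers, Slc1a3 and Dkk3 were higher, by 0.79 and 0.75. In TD139 against vehicle mice Dkk3 was lower (−0.51, adjusted p = 0.0178 by edgeR), and all 5 Müller glia and all 5 retinal pigment epithelium markers had negative log2 fold changes, of which 1 in each list was called. In TD139 against vehicle mice, the bipolar markers Grm6, Trpm1 and Prkca were higher (0.69, 0.41 and 0.45) and Pcp2 was lower (−0.67). Of these 4, only Grm6 was still called after the length and GC correction (0.66). These genes were named after their values were seen.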
